A study of Mus musculus with 32 samples.

Results

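Scavenger and apoptotic-cell uptake receptors, and the secreted proteins that bridge them to dying cells, were examined in cells sorted from mouse islets during VEGF-A induction and withdrawal. They are the 10 genes Mrc1, Msr1, Cd163, Marco, Mertk, Axl, Gas6, Stab1, Timd4 and Mfge8, chosen by symbol, and all 10 were found once among the 22850 genes of the deposited table. Macrophages (MΦs) clear dying cells by efferocytosis, in which a receptor on the MΦ recognises phosphatidylserine exposed on the dying cell, either directly or through a soluble bridging protein. Scavenger receptors form a second, overlapping group that binds modified lipoproteins, glycoproteins and cell debris and carries them to the lysosome. The study concerns β cell loss and recovery when VEGF-A is switched on and off in islets.

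All samples came from mice that carry MIP-GFP, RIP-rtTA and TetO-VEGF-A, made from lines on a C57BL/6 background, and the study's methods give ages of young adults. The rat insulin promoter drives rtTA, a doxycycline-dependent activator, in β cells, where doxycycline (Dox) then switches on human VEGF-A, and the mouse Ins1 promoter drives GFP. Every group carried all 3 transgenes, so the baseline group (No Dox) differed from the others by Dox and not by genotype. The group called 1wk Dox was taken after 1 week of induction, and the group called 1wk WD had 1 further week without Dox. Islets were pooled from several mice per sample and sorted into endothelial cells (ECs, CD31+), MΦs (CD11b+) and β cells, which were GFP+ and negative for both CD31 and CD11b. CD11b also marks monocytes, neutrophils and some dendritic cells, so the sort does not select MΦs alone. In the order No Dox, induction, withdrawal there were 4, 5 and 3 samples of β cells, 4, 1 and 5 of ECs, and 4, 2 and 4 of MΦs. The study has further induced samples of ECs and MΦs, which were not analysed here. The number of mice and any shared batch behind a replicate number were not given in the labels, so p-values measure the spread between these samples. Both 1wk Dox MΦ samples, the 1wk Dox EC sample and 1wk WD β cell replicate 3 have library numbers apart from those of all other samples used. What this numbering reflects was not given. In MΦs and ECs a difference between the 2 series of numbers cannot be told apart from induction.

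The values are scores: expression that the authors normalised by the TMM method, deposited as whole numbers of which the lowest is 1. Reads cannot be recovered from them, the depth is unknown, and they are not scaled by gene length, so levels are compared between samples of one gene and not between genes. Scores summed to between 23465985 and 53441769 per sample. Fold changes are differences of log2(score + 1), tested with limma over all genes whose mean score reached 20 in any group fitted. A call required a 2-fold difference and an adjusted p (Benjamini-Hochberg, over all genes tested) below 0.05.

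The sorted populations matched their labels by markers, with exceptions that touch the results. The summed score of 8 MΦ markers was 293244 to 482104 in MΦ samples and 530 to 929 in ECs. Likewise 7 EC markers summed to 313800 to 445085 in ECs and 1115 to 40879 in β cells, and 7 β cell markers to 429394 to 10443202 in β cells and 331 to 3143 in ECs. Exocrine transcripts were lower in the induced samples than at No Dox in every cell type. The summed score of 5 acinar markers in MΦs was 19228 to 9911750 at baseline, 765 to 2703 during induction and 1277 to 174850 after withdrawal. The β cell samples differed widely in 6 stromal markers, from 805 to 453038 in sum at No Dox. The MΦ samples also held transcripts used as markers of other myeloid cells. The summed score was 17086 to 28191 for 6 monocyte and neutrophil genes and 20100 to 29732 for 4 dendritic cell genes. Ccr2 alone scored 11621 to 24024 of the first sum and Itgax 11258 to 18560 of the second. Which cells these transcripts came from was not tested. In bulk samples such as these, fewer cells of a type and less RNA per cell cannot be told apart.

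The members sit on 7 chromosomes of the mm9 build, and their coordinates in the table are those of GENCODE M1. Among the scavenger receptors, Mrc1 (ENSMUSG00000026712) spans chr2:14151041-14253684, Msr1 (ENSMUSG00000025044) chr8:40667054-40728032, Cd163 (ENSMUSG00000008845) chr6:124254669-124280545, Marco (ENSMUSG00000026390) chr1:122371115-122401661 and Stab1 (ENSMUSG00000042286) chr14:31952199-31981827. Among the receptors for dying cells, Mertk (ENSMUSG00000014361) spans chr2:128524692-128628630, Axl (ENSMUSG00000002602) chr7:26542292-26573724 and Timd4 (ENSMUSG00000055546) chr11:46624302-46657834. The bridging proteins Gas6 (ENSMUSG00000031451) and Mfge8 (ENSMUSG00000030605) are encoded at chr8:13465374-13494535 and chr7:86278655-86293946. The annotation places the microRNA gene Mir511 inside Mrc1 on the same strand, a small nucleolar RNA gene and the noncoding gene Gm14011 inside Mertk, and Nt5dc2 across 109 bases of Stab1 on the opposite strand. Whether the counting used strand is not given in the sources used here, so reads in those stretches could have been counted for either gene.

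The promoters of Gas6, Stab1 and Axl are shown because these genes, with Msr1, were the members called over time in the comparisons that follow. They run from 250 bases before to 50 bases after the start site of the RefSeq gene, on the GRCm38.p6 build, and are written along the gene's own strand. Capitals mark 3 motifs searched on both strands: GAGGAA, the core of sites bound by PU.1 and other ETS factors, TGANTCA, the AP-1 site, and GGGCGG, the GC box of Sp1. A table entry was found for 9 of the 10 members, and Msr1 is named only.
Gas6, chr8:13494486-13494785, minus strand: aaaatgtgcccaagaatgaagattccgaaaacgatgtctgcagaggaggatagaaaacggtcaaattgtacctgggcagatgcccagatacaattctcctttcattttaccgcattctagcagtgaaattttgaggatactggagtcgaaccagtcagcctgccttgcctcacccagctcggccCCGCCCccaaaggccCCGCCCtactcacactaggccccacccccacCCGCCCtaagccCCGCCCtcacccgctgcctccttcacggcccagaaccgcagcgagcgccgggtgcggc
Stab1, chr14:31168592-31168891, minus strand: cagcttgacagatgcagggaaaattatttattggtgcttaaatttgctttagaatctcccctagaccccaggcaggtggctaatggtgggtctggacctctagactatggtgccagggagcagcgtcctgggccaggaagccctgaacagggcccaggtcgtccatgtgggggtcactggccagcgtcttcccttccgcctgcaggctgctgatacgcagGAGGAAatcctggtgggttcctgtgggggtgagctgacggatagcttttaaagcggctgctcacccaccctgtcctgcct
Axl, chr7:25788684-25788983, minus strand: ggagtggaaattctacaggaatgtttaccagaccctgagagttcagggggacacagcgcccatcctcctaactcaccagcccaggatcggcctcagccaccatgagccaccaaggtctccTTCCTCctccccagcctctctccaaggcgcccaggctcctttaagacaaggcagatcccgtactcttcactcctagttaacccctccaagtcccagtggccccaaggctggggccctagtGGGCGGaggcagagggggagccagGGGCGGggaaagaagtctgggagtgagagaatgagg
The Gas6 promoter held 4 GC boxes and neither other motif, Stab1 held 1 GAGGAA and no GC box, and Axl held 1 GAGGAA and 2 GC boxes. Over the 9 promoters, 5 held GAGGAA and 5 held a GC box, and 0 held the AP-1 site. Of 32544 distinct promoters, 28.1% held GAGGAA, 35.9% a GC box and 7.79% the AP-1 site. These are matches of letters, and binding was not measured.

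At baseline, Mrc1, Cd163, Axl and Stab1 were higher in MΦs than in the other sorted cells, and Mfge8 was higher in ECs than in MΦs. Of the 10 members, 7 were called higher in MΦs than in ECs at No Dox and 1, Mfge8, was called lower, against 33.5% of all 16380 genes tested called in either direction. Against β cells 8 of 10 were called higher in MΦs and none lower, beside 43.2% of all genes. Msr1, Marco and Timd4 are among the calls of both contrasts and passed the filter only through their MΦ scores, so their direction there was set by the filter. Of the other 7 members, 4 were called higher in MΦs than in ECs and 5 higher than in β cells. Between ECs and β cells 6 of 10 were called, 4 of them higher in ECs, beside 37.7% of all genes. Timd4 is 1 of the 6, and in a fit of ECs and β cells alone it, Msr1 and Marco were not tested. That fit called 3 of the other 7 members, Mrc1, Mertk and Stab1, beside 37.6% of all genes. Gas6 and Mfge8, whose groups overlapped, then had adjusted p of 0.0645 and 0.0799, and leaving out 1 sample gave 4 to 6 calls. A single fit over the 12 No Dox samples served all these contrasts, so that the wide spread of the β cell samples also entered the contrast of MΦs with ECs.

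Mrc1, the mannose receptor CD206, and Msr1 had the highest MΦ to EC differences of the members. Mrc1 scored 52243, 41601, 56747 and 38848 in the 4 No Dox MΦ samples, and 28 to 66 in the ECs. The difference was 9.91 ± 0.50 on the log2 scale (SE, adjusted p = 2.85e-08). Msr1, the class A scavenger receptor that takes up acetylated lipoproteins, scored 4183 to 6626 in MΦs and 1 to 8 in ECs. Cd163, the haemoglobin-haptoglobin receptor, scored 6247 to 8777 in MΦs, 7 to 50 in ECs and 8 to 376 in β cells. Marco, a collagen-like scavenger receptor, was low even in MΦs, at 4, 54, 45 and 27, and was at 1 in every β cell sample. Timd4, which binds phosphatidylserine directly, scored 226 to 858 in MΦs and was at the lowest score, 1, in every EC sample.

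Stab1, Mertk and Axl were each detected in more than 1 cell type. Stab1, a scavenger receptor of MΦs and of sinusoidal endothelium, scored 14343 to 21957 in No Dox MΦs and 6874 to 7173 in ECs, a difference of 1.44 ± 0.34 on the log2 scale (adjusted p = 0.00469). Mertk, a receptor tyrosine kinase that binds Gas6 and protein S, scored 7691 to 10018 in MΦs and 5032 to 5904 in ECs. The Mertk groups did not overlap, but the fit over 3 cell types left a log2 difference of 0.69 with a 95% interval from -1.83 to 3.21. Axl, the receptor of the same family with the highest affinity for Gas6, scored 37820 to 43042 in MΦs and 89 to 267 in ECs. Tyro3, the remaining receptor of that family, stayed between 1 and 72 in all No Dox MΦ samples and between 1 and 12 in the ECs.

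The bridging proteins had the opposite order. Gas6, which links phosphatidylserine to Axl and Mertk, scored 5067, 5728, 7200 and 5629 in No Dox ECs and 596, 864, 241 and 502 in MΦs. No MΦ sample reached the lowest EC sample. The log2 difference of MΦs from ECs was -3.55 ± 1.39 and was not called in the fit with β cells (adjusted p = 0.0581), whereas the fit of ECs and MΦs alone called it at the same size (adjusted p = 9.44e-06). Mfge8, which bridges phosphatidylserine to integrins, scored 4065 to 5243 in ECs and 116 to 261 in MΦs, a log2 difference of -4.63 ± 1.42 (adjusted p = 0.0194). Pros1, which encodes protein S, the other ligand of Mertk, scored 3492 to 4174 in No Dox ECs and 1468 to 2425 in MΦs.

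Gas6, Msr1 and Stab1 rose in MΦs during VEGF-A induction. At 1wk Dox, 3 of the 10 members were called, all of them higher than at No Dox, while 2.26% of all 15014 genes tested were called and 1.61% were called higher. The groups of samples did not overlap for 7 of the 10 members, beside 30.9% of all genes, with only 2 samples at 1wk Dox. Both have library numbers apart from the other MΦ samples, so a difference between library series cannot be told apart from induction. The median log2 difference of the members was 0.64, and that of all genes was 0.04. Leaving out either 1wk Dox sample left 0 members called, with the remaining sample assumed to vary like the other groups, and fits of the compared groups alone or with no trend on expression also called 0, with adjusted p of 0.0520 to 0.0959 for the 3 genes.

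**Figure D1:**
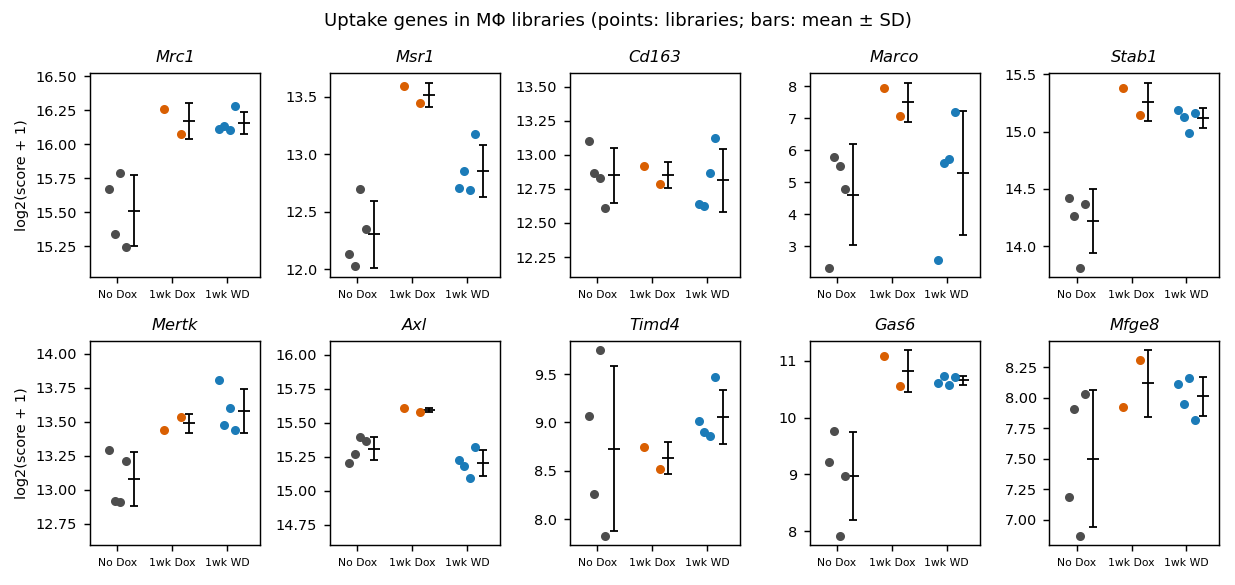
Expression of the 10 members in MΦ samples, on log2(score + 1) axes that differ between panels, with 1 point per sample at No Dox (4), under Dox (2) and after withdrawal (4) and bars for the mean and SD. Gas6, Stab1 and Mrc1 lie above every No Dox sample at both later times, Msr1 peaks at 1wk Dox, and Cd163 overlaps throughout.

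Gas6 showed the largest called change. From 596, 864, 241 and 502 at baseline it went to 2162 and 1508 during induction, and was at 1558, 1711, 1516 and 1680 after withdrawal. Every later sample was above every No Dox sample. The log2 difference was 1.85 ± 0.37 at 1wk Dox, or 3.61-fold (adjusted p = 0.0190), and 1.69 ± 0.30 at 1wk WD, or 3.23-fold (adjusted p = 0.0259). Between 1wk WD and 1wk Dox it was -0.16, with a 95% interval from -0.97 to 0.64. The Gas6 mean of MΦs at 1wk WD, 1616 ± 94.0 (SD, n = 4), remained under the lowest No Dox EC sample.

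Msr1 rose during induction. Its scores were 4493, 4183, 6626 and 5226 at baseline and 12354 and 11143 at 1wk Dox, a log2 difference of 1.22 ± 0.20 (adjusted p = 0.00920). At 1wk WD the scores were 6692, 7410, 6579 and 9257, which lie below both 1wk Dox samples and overlap the No Dox samples. The difference of 1wk WD from No Dox was 0.55 (adjusted p = 0.101) and that from 1wk Dox was -0.66 (adjusted p = 0.271), so neither was called.

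Stab1 scored 21957, 19680, 14343 and 21175 at No Dox and 42645 and 36204 at 1wk Dox, a log2 difference of 1.05 ± 0.18 (adjusted p = 0.0108). At 1wk WD it scored 37268, 35800, 32549 and 36679. The difference from No Dox was then 0.90 ± 0.15 with an adjusted p of 0.0178, which met the p threshold and stayed under a fold change of 2, at 1.87. Stab1 was above all No Dox samples in 6 of the 6 later samples. Without No Dox replicate 3, the lowest, the 1wk Dox difference was 0.91 and no longer reached 2-fold.

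The remaining MΦ receptors moved by less than 2-fold or varied too much to be called. Mrc1 scored 78647 and 69073 during induction and 70893, 71880, 70507 and 79570 after withdrawal, all above the highest No Dox sample of 56747. Its log2 differences were 0.66 ± 0.19 and 0.64 ± 0.15, with adjusted p of 0.0693 and 0.0629. Mertk scored 11085 and 11884 during induction, then 11112 to 14289, above the No Dox maximum of 10018, with log2 differences of 0.41 and 0.50 that were not called. Axl scored 49866 and 49016 at 1wk Dox, above every No Dox sample, and 34900 to 40996 at 1wk WD, below both induced samples. Its 1wk Dox difference from No Dox was 0.28 ± 0.15 and was not called (adjusted p = 0.289). Its 1wk WD difference from No Dox was -0.10, with a 95% interval from -0.36 to 0.16.

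Cd163, Timd4 and Mfge8 overlapped between No Dox and each later time. Cd163 scored 7761 and 7059 during induction and 6307 to 8926 after withdrawal, and its 1wk WD interval ran from -0.35 to 0.27 on the log2 scale. Timd4 scored 428 and 365, then 462 to 706. Mfge8 was low in MΦs throughout, at 242 and 316 during induction and 225 to 286 after it. Marco, at 245 and 133 in the induced samples, exceeded its No Dox maximum of 54, but its log2 difference of 2.90 ± 1.18 was not called (adjusted p = 0.183). The 1wk WD samples of Marco ranged from 5 to 146 and overlapped No Dox.

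After withdrawal Gas6 was the 1 member called in MΦs, in a comparison that shares its No Dox samples with that of induction. That is 1 of 10 members at 1wk WD against No Dox, beside 0.626% of all genes, and 4 of 10 members had groups that did not overlap, beside 9.24% of all genes. The 4 were Mrc1, Mertk, Gas6 and Stab1. The Gas6 call was lost when 1wk WD replicate 2, 3 or 4 or 1wk Dox replicate 4 was left out, with adjusted p of 0.0921, 0.0800, 0.0828 and 0.0591 and log2 differences of 1.66 to 1.72. It was also lost with no filter on low scores (adjusted p = 0.0515) and with no trend (adjusted p = 0.119). Between 1wk WD and 1wk Dox, limma called 0 of 10 members and 0.0866% of all genes, and 2 members, Msr1 and Axl, had an unadjusted p under 0.05.

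General MΦ markers, taken as a sum, moved in the same direction as these genes. The summed score of the 8 MΦ markers was 293244 to 374515 at baseline, 408123 to 482104 during induction and 394835 to 478930 after withdrawal. Of the 8, 4 lay above all No Dox samples at each later time, beside 30.9% and 9.24% of all genes without overlap in either direction. None of the 8 was at the lowest score in any MΦ sample. Itgam, the gene of the sorted antigen CD11b, went the other way, from 29382 to 45478 at No Dox to 21379 and 22708 with Dox and 20309 to 29800 after withdrawal. Ptprc, at 28526 and 29520 with Dox, lay within its No Dox range of 27100 to 44259. EC markers were low in MΦs, with a sum over 7 genes of 1249 to 1707 at baseline, 2655 and 3115 with Dox and 1683 to 2395 after withdrawal, beside at least 313800 in ECs. The stromal sum in MΦs was 2854 to 4414 at baseline, 4157 and 5753 with Dox and 1930 to 8845 after withdrawal. Of 4 dendritic cell markers, 2 were below every No Dox MΦ sample at 1wk Dox, Flt3 at 2978 and 3479 against 5443 to 7609 and Zbtb46 at 2580 and 2794 against 2907 to 5410. Flt3 was again below at 1wk WD, at 3819 to 5035. The monocyte and neutrophil sum was 20438 and 17411 at 1wk Dox, below the 20867 to 28191 of No Dox, and 17086 to 26564 at 1wk WD. Ccr2 was its largest part and overlapped, at 14586 and 17470 with Dox against 16941 to 24024. The mean log2(score + 1) of the 6 genes was 9.76 and 9.77 with Dox, within the 9.31 to 10.25 of No Dox. Of the 6, 1 gene, Cxcr2, was below every No Dox sample at 1wk Dox (489 and 493 against 637 to 907). All 5 acinar markers were below every No Dox MΦ sample at 1wk Dox. The part of marker levels in the member changes was not tested. Without No Dox MΦ replicates 2 and 4, whose acinar sums were 9911750 and 1674642, the same 3 members were called at 1wk Dox, beside 6.41% of all genes, with log2 differences of 2.25 for Gas6, 1.10 for Msr1 and 1.15 for Stab1. At 1wk WD that setting called 2 members, Gas6 at 2.09 and Stab1 at 1.00, beside 2.34% of all genes.

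In ECs after withdrawal Axl was higher and its ligand Gas6 was lower than at baseline. Of 10 members, 7 passed the filter on low scores in the EC fit, and 1 of them, Axl, was called at 1wk WD against No Dox, beside 1.76% of all 14167 genes. Msr1, Marco and Timd4 did not pass. The groups did not overlap for 3 members, Axl, Gas6 and Mertk, beside 10.7% of all genes. Axl was higher at 1wk WD and the other 2 were lower.

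**Figure D2:**
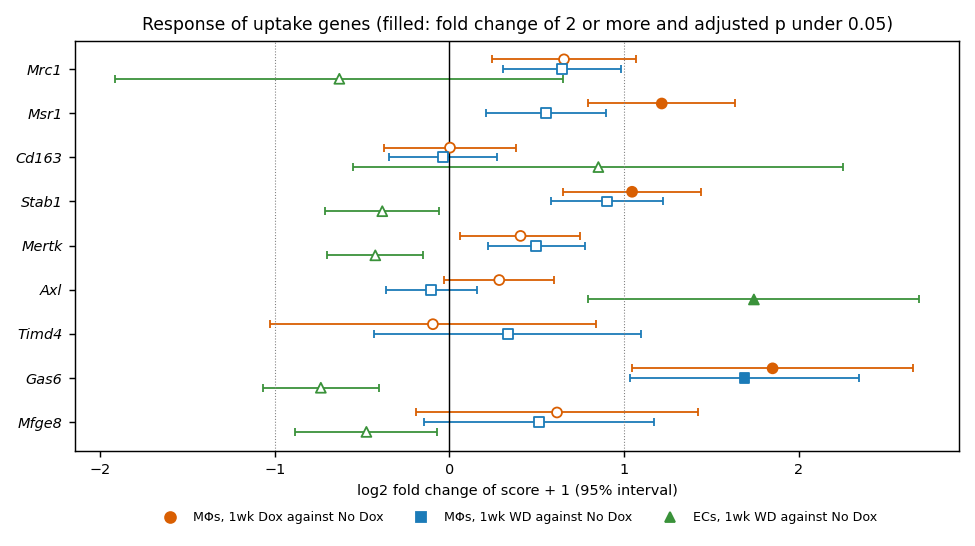
Log2 fold changes of 9 members with 95% intervals from limma, for MΦs at 1wk Dox and 1wk WD and for ECs at 1wk WD, each against No Dox, with filled symbols for calls and dotted lines at a fold change of 2. Gas6 is called higher in MΦs at both times and lies below 0 in ECs, and Axl is called in ECs only. Members not tested in ECs have no triangle, and Marco is left out for its wide interval.

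Axl scored 140, 267, 89 and 228 in No Dox ECs and 945, 346, 274, 1167 and 519 after withdrawal. The lowest 1wk WD sample was just above the highest No Dox sample. The log2 difference was 1.74 ± 0.44, or 3.35-fold (adjusted p = 0.0456). The 2 highest samples were 1wk WD replicates 1 and 4, which also had the highest stromal marker sums among ECs, 46173 and 67519. Over the 6 stromal markers the EC sum was 5036 to 11540 at baseline, 13327 in the induced sample and 15601 to 67519 after withdrawal, and Rgs5, Col1a1 and Lum each lay above all No Dox samples. Lum was at 7 to 20 in the 1wk WD ECs and Dcn at 4 to 64. Without 1wk WD replicates 1 and 4, the Axl difference was 1.14 and was not called (adjusted p = 0.127). The call was also lost when any 1 of the 4 No Dox samples, or 1wk WD replicate 1, 4 or 5, was left out, with log2 differences of 1.45 to 1.97 and adjusted p of 0.0565 to 0.144. The MΦ marker sum was 929, 703, 646, 530 and 796 in 1wk WD replicates 1 to 5 and 548 to 653 at No Dox, so that 3 of the 5 exceeded the No Dox maximum, while 0 of the 8 markers lay above all No Dox samples throughout. The part of MΦ transcripts in the Axl change was not tested, and that of stromal transcripts was not tested further.

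Gas6 in ECs scored 5067, 5728, 7200 and 5629 at No Dox and 3989, 4287, 3117, 2613 and 3840 at 1wk WD. Every 1wk WD sample was below every No Dox sample. The log2 difference of -0.74 ± 0.15 met the p threshold (adjusted p = 0.0220) at a fold change of 1.67, so it was not called. Without No Dox replicate 2 or 3 or 1wk WD replicate 3 its adjusted p was 0.0565, 0.0778 and 0.0508. Mertk scored 5471, 5032, 5143 and 5904 at No Dox and 4360, 4226, 3298, 3412 and 4976 at 1wk WD, a log2 difference of -0.42 ± 0.13 (adjusted p = 0.0845). Stab1 scored 4018 to 7100 at 1wk WD and Mfge8 1989 to 4252. Both overlapped No Dox, with log2 differences of -0.39 and -0.48 that were not called (adjusted p = 0.166 and 0.169). The EC marker sum was also lower at 1wk WD, 313800 to 358318 against 388995 to 412478 at No Dox, with 2 of the 7 markers below every No Dox sample. Its part in these differences was not tested.

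**Figure D3:**
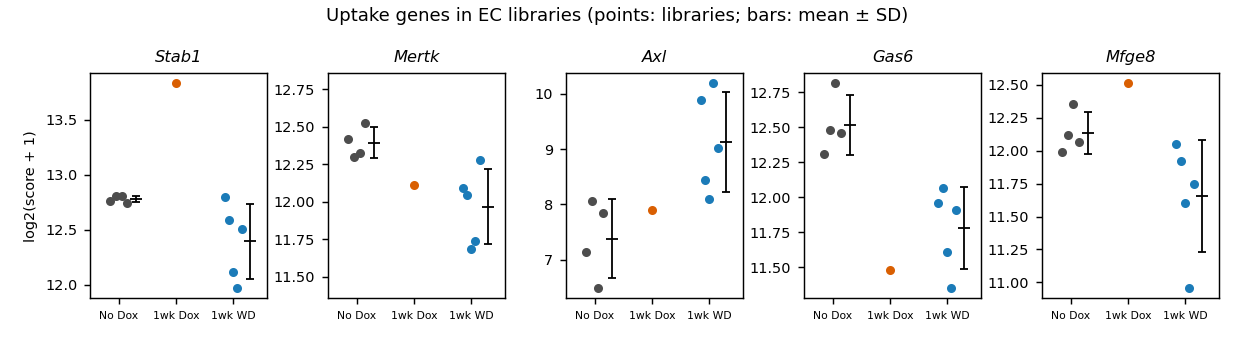
Expression of the 5 members that are well above the lowest score in ECs, on log2(score + 1) axes that differ between panels, with 1 point per sample at No Dox (4), under Dox (1) and after withdrawal (5) and bars for the mean and SD. Axl is higher and Gas6 and Mertk are lower in every 1wk WD sample than in any No Dox sample, and the single 1wk Dox sample lies above both other groups in Stab1 and Mfge8.

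With 1 EC sample analysed at 1wk Dox, itself from the library series numbered apart, induction was not tested in ECs. Its Stab1 score of 14563 was above the No Dox range of 6874 to 7173, 1.05 higher than the No Dox mean on the log2 scale. Gas6 at 2848 was below the No Dox range of 5067 to 7200, with a log2 difference of -1.04 from the No Dox mean, and within the 1wk WD range. Mertk at 4416 was also below its range, Mfge8 at 5834 was above its range, and Axl at 239 was within it. Of 4 genes of sinusoidal or lymphatic ECs, Flt4 was above its No Dox range in this sample (20208 against 12759 to 15564), Lyve1 and Stab2 were below theirs (81 and 15), and Prox1 was within it. Their part in the Stab1 value was not tested.

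The withdrawal response was tested directly between MΦs and ECs, each with several samples at both times. β cells, which also had several samples at both times, were not part of this test. Called differences were found for 2 of 10 members, Gas6 and Stab1, beside 1.4% of all 15603 genes. The Gas6 response was 2.43 ± 0.37 higher in MΦs than in ECs on the log2 scale (adjusted p = 0.00349). For Stab1 the difference was 1.29 ± 0.22 (adjusted p = 0.00684). Both calls were kept in every fit that left out 1 sample, with ranges of 2.08 to 2.69 and 1.15 to 1.39. For Mertk the difference of 0.92 ± 0.19 met the p threshold (adjusted p = 0.0174) and stayed under 2-fold. For Axl it was -1.85 ± 0.52 and was not called (adjusted p = 0.0702). At 1wk Dox the comparison between these cell types was not tested, with 1 EC sample analysed.

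In β cells the members were read in libraries that also carried stromal transcripts to very different degrees. Of 10 members, 9 passed the filter, all but Marco, and limma called 0 of them in induction against baseline, in withdrawal against baseline or in withdrawal against induction, beside 0.0122%, 0% and 0% of 16346 genes. At an unadjusted p under 0.05, 0 members passed in each of these comparisons. Axl scored 64, 42, 3935 and 11878 in the 4 No Dox samples, then 9561, 3376, 6267, 10397 and 2839 with Dox, and 11709, 10787 and 1839 after withdrawal. No Dox replicates 1 and 2 stood far below the others. The same replicates were the lowest of their group in Gas6, at 32, 39, 1973 and 5156, and in Mfge8, at 38, 21, 1806 and 4668. Mertk likewise scored 16, 39, 556 and 1913.

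**Figure D4:**
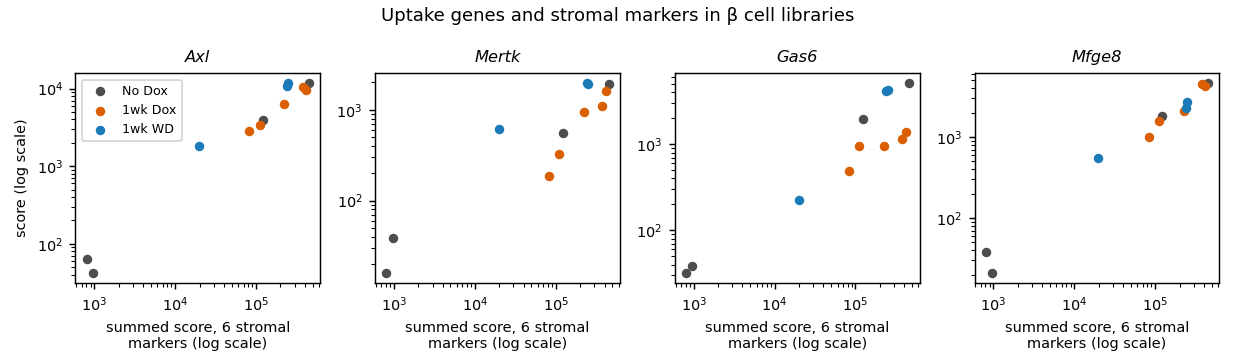
Scores of Axl, Mertk, Gas6 and Mfge8 in the 12 β cell samples against the summed score of 6 stromal markers, on log axes, coloured by time. No Dox replicates 1 and 2, with stromal sums of 805 and 964, hold the lowest score of each gene, and samples of all 3 times with higher sums hold higher scores.

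The stromal marker sum of the β cell samples was lowest in the same No Dox replicates. It was 805, 964, 122592 and 453038 in No Dox replicates 1 to 4, 82877 to 415186 with Dox and 19898 to 249113 after withdrawal. The 1wk WD sample with the lowest stromal sum, replicate 3, also had the lowest 1wk WD scores of Axl, Gas6, Mertk and Mfge8. Across times the order was not kept. The Mertk score of that sample, 622, was above the 186 of 1wk Dox replicate 5, whose stromal sum was 82877. Rgs5, a pericyte gene, gave 619 to 328651 of this sum at No Dox. The part of stromal cells in the β cell values was not tested. Without No Dox replicates 3 and 4, whose acinar marker sums were 10512633 and 8079277, 5 members were called higher at 1wk Dox, beside 7.36% of all genes called: Axl by 6.75 on the log2 scale, Mfge8 by 6.30, Gas6 by 4.69, Mertk by 4.60 and Cd163 by 3.38. The same setting called the same 5 at 1wk WD, beside 8.74% of all genes. The No Dox samples that remained were those with the lowest stromal sums, and also the lowest MΦ marker sums, 926 and 498 against 2068 to 12858 in the later samples, and dendritic sums, 391 and 249 against 1200 to 8904. The sort was set to leave out CD11b+ cells, and the part of MΦ and dendritic transcripts in the 5 calls was not tested.

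Mrc1, Msr1, Cd163 and Timd4, the receptors higher in MΦs, were low in β cells at each time. Mrc1 scored 103 to 598 at baseline, 24 to 291 with Dox and 2 to 853 after withdrawal. Msr1 reached 103 at most and Cd163 376. Stab1 scored 65 to 289 at baseline, 49 to 1366 with Dox and 126 to 1112 after withdrawal, with overlapping groups that were not called apart. EC markers also varied in these samples: in 1wk Dox replicates 1 to 5 Stab1 scored 1366, 574, 899, 49 and 202, beside EC marker sums of 40879, 13871, 18270, 4791 and 1115. The 1wk WD sample with 1112 had the highest EC sum of its group, 12926. The β cell sort was set to leave out CD31+ cells. The part of ECs in these values was not tested. Timd4 was between 1 and 121 in all 12 samples.

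Other genes of uptake and engulfment were read from a list of 65 genes present in the table, ordered by role. In MΦs at 1wk Dox, 4 of 64 genes tested were called, all higher, beside 1.61% of all genes called higher. Of these, 2 encode chains of C1q, the complement opsonin that coats dying cells: C1qb scored 54234 and 69084 against 15678 to 32970 at No Dox (log2 difference 1.42 ± 0.24), and C1qc 46080 and 57424 against 10385 to 20685 (1.79 ± 0.25). C1qa, the remaining chain, scored 5878 and 9863 against 894 to 7958 and was not called. Siglec1, the sialoadhesin receptor, was called at 1wk Dox (1.44 ± 0.19) and was the only list gene called at 1wk WD (1.03 ± 0.16, 1 of 64 beside 0.626% of all genes). Nr1h3, the oxysterol sensor LXRα that responds to engulfed cholesterol, scored 549 and 692 against 137 to 267 (1.63 ± 0.32, adjusted p = 0.0181). None of the 12 genes of the engulfment machinery and none of the sheddases Adam10 and Adam17 was called in MΦs. Abca1, of the engulfment list, nonetheless lay above its No Dox MΦ range of 13133 to 15405 at both later times. It scored 20258 and 21563 with Dox and 20697 to 24257 after withdrawal. Between 1wk WD and 1wk Dox 0 of 64 were called.

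In ECs at 1wk WD, 4 of 49 list genes tested were called, beside 1.76% of all genes. Abca1, the cholesterol exporter, scored 8948 to 13236 against 4000 to 5232 at No Dox (1.27 ± 0.12, adjusted p = 7.70e-04). Lrp1, a scavenger receptor of the low-density lipoprotein receptor family, scored 375 to 1105 against 187 to 338 (1.44 ± 0.30, adjusted p = 0.0228). As for Axl, its highest samples were replicates 1 and 4, those with the highest stromal sums, and the part of stromal transcripts in the Lrp1 change was not tested. Ucp2, a mitochondrial carrier, scored 4842 to 14343 against 20753 to 25058 (-1.26 ± 0.27), and Cx3cl1, a chemokine that attracts phagocytes, 799 to 2213 against 2512 to 3283 (adjusted p = 0.0377). The 1wk WD sample highest in Axl, replicate 4, was lowest in Ucp2 and Cx3cl1. Pros1 had a log2 difference of 0.15 in ECs and 0.05 in MΦs at 1wk WD, neither called, and Tyro3 was too low to be tested in ECs. In β cells 0 of 61 list genes were called in any of the 3 comparisons.

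Likeness of pattern over the 32 samples was described by Pearson's r of log2(score + 1) among 16968 genes, and mostly follows which cell type a sample is. Mrc1 was most like Clec4n (r = 0.972), Pilrb2 and Clec4a2, and Msr1 most like Mgl2 (r = 0.980), Clec4a2 and Cd300ld. Axl was most like Apbb1ip (r = 0.980), Adap2 and Pla2g4a. The genes nearest to Gas6 were Pmp22 (r = 0.949), Tns1 and Slc12a4, and those nearest to Stab1 were Abcg1 (r = 0.953), Picalm and Sh2d1b1. Clec4a2 was shared by the Mrc1 and Msr1 lists, and no gene was shared by the Axl and Gas6 lists.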

How the data were processed

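RNA-sequencing data of 32 samples in 9 groups, from 3 cell types sorted out of islets, were analysed. Per the labels, RNA was amplified with the NuGEN Ovation kit before library preparation. The authors aligned 50 bp paired-end reads to mm9 with TopHat2 2.0 and normalised gene abundance with TMM in Avadis NGS; the gene annotation is not given in the sources used here. The deposited scores are these normalised values rounded to whole numbers, with a lowest value of 1, so that count models, depth and counting intervals could not be had. Labels and methods state different minimum RNA integrity numbers and fragment sizes. Of 38 columns of sample values, 6 belong to other samples and were not used.

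Scores were taken as log2(score + 1) and limma (3.58.1, R 4.3.3) was run with moderated variances that follow a trend in expression, on genes whose mean score reached 20 in any group fitted. All 3 times entered the fits of β cells and of MΦs, that of ECs left out the lone 1wk Dox sample, the cell type fit all No Dox samples, and the difference of responses ECs and MΦs at No Dox and 1wk WD. P-values were adjusted by Benjamini-Hochberg over all genes tested, and a call needed a 2-fold difference and an adjusted p below 0.05. For some of the comparisons the code was also run on simulated scores in which the changed genes were known. No batch or mixture of cell types was simulated, and the outcome is not reported here. Alternatives were pseudocounts of 0.1 and 20, no filter and a filter at 200, scaling by median of ratios, no trend, only the groups compared, a replicate block, and leaving out each sample. Leaving out samples with an acinar marker sum over 1000000, or 1wk WD ECs with a stromal marker sum over 40000, was chosen after seeing the data.

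The members, pathway list and marker lists were chosen with earlier results of these data known. Named genes are the 10 members, the pathway genes called in a time comparison with Tyro3 and Pros1, the 3 genes most like Mrc1 and each member called over time, and markers; C1qa, Adam10 and Adam17 were named after their values were seen. Promoters are RefSeq sequences on GRCm38.p6, used for their letters only. Figures were drawn with matplotlib 3.10.9.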

Additional observations from a re-analysis of the deposited data

Results flagged for a closer look

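Differences of response between cell types were found for Gas6, whose 1wk WD response was 2.43 higher in MΦs than in ECs on the log2 scale, and Stab1, for which it was 1.29 higher, both by the test of the difference itself.

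A sample lay far from the rest of its group in 3 of 49 member groups of 4 or 5 samples, where chance alone sets apart about 1 in 20. Mrc1 scored 598 in No Dox β cell replicate 4 and 103 to 112 in the other samples of that group. Mrc1 also scored 79570 in 1wk WD MΦ replicate 4 and 70507 to 71880 in the other samples, a narrow span. Timd4 scored 102 in 1wk Dox β cell replicate 5 and 1 to 5 in the others.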

How the results depend on the processing

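Of 227 recomputed counts of called members, 201 stayed within 1.5 times the reported count and 26 did not, and of 2131 recomputed log2 differences 51 changed sign, 50 lost a call and 27 gained one. The calls of Gas6 and Stab1 in the difference of responses were kept under leaving out each sample. Where a cause is not given it was not tested.

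In MΦs under Dox the 3 calls became 0 with no trend and with only the groups compared, and leaving out each sample gave 0 to 3. In MΦs after withdrawal the 1 call became 0 with no filter and with no trend, and 2 without the high-acinar samples, and leave-one-out gave 0 to 1. In ECs the 1 call became 0 with no filter, with no trend, without the high-acinar sample and without the high-stroma samples, and leave-one-out gave 0 to 1. In β cells 0 became 5 in each comparison with No Dox without the high-acinar samples. ECs against β cells went from 6 to 3 with only the groups compared.

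Numbers did not pair the samples: same-numbered samples had correlations of -0.51 to 0.43. The replicate block reduced the 3 MΦ calls under Dox to 0 (Gas6 2.08, adjusted p = 0.205), and turned the sign of Timd4 there to 0.27, of Mfge8 between withdrawal and Dox in MΦs to 0.26, and of Mrc1 between these times in β cells to 0.44.

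The other sign changes were of log2 differences that were not called. Pseudocount 20 gave 0.31 for Mrc1 between withdrawal and Dox in β cells and 0.08 for the Msr1 difference of responses. Median-of-ratios scaling gave -0.02 for Cd163 under Dox in MΦs and 0.00 for Mrc1 between withdrawal and Dox. Without high-stroma samples Mrc1 in ECs was 0.12. Without high-acinar samples, Timd4 was 0.51 under Dox in β cells, -0.35 after withdrawal in MΦs and -0.35 for the difference of responses, Cd163 under Dox in MΦs was -0.11, Mfge8 in MΦs against β cells was 2.16, and ECs against β cells gave 0.00 for Cd163 and 1.43 for Axl.

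Leaving out 1 sample each gave, in β cells between withdrawal and Dox, -0.35 to 0.98 for Axl, -1.03 to 0.12 for Mfge8, -2.14 to 1.93 for Mrc1 and -1.05 to 0.51 for Stab1, and against No Dox after withdrawal -3.11 to 0.97 for Mrc1 and -0.01 to 2.67 for Timd4. In MΦs it gave -0.08 to 0.09 for Cd163 and -0.39 to 0.25 for Timd4 under Dox, -0.14 to 0.04 for Cd163 and -0.09 to 1.57 for Marco after withdrawal, and -0.14 to 0.03 for Cd163, -0.42 to 0.10 for Gas6, -0.30 to 0.09 for Mfge8 and -0.11 to 0.08 for Mrc1 between these times. MΦs against β cells gave -0.57 to 1.86 for Gas6 and -1.93 to 0.65 for Mfge8.

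Depth is unknown, so low scores such as those of Marco, Tyro3 and Timd4 have no counting error attached. Only 2 MΦ samples and 1 EC sample stand under Dox.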
